A study of Bos taurus with 16 samples.

Results

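The 2-cell (2C) and 4-cell (4C) stages of bovine embryos developed in vivo were compared, with 2 embryos at each stage chosen by their stage labels alone. The deposited table has 27393 loci and 16 samples, which are single mature oocytes (MII) and single embryos of 7 later stages, and 14624 of the loci had reads in at least 1 of the 4 embryos compared. RNA of each embryo was extracted by itself, amplified in 2 rounds and sequenced. The comparison therefore concerns the share of each mRNA among the amplified mRNAs of an embryo, and less RNA per embryo cannot be told apart from more. No treatment, genotype or sex was given for these embryos, and nothing in the labels says whether the embryos of a stage shared a dam. The question was which mRNAs differ in abundance across the division that comes before the main activation of the embryonic genome.

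A mammalian embryo starts development on mRNAs and proteins that the oocyte stored while it grew. Maternal mRNAs are kept silent or translated by proteins that bind their 3' ends, and are removed by shortening of the poly(A) tail. The embryo takes over when its own genome is transcribed, at embryonic genome activation (EGA), which in cattle falls later in embryos cultured in vitro than in embryos developed in vivo such as these.

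Between 1440058 and 3379426 reads were recovered for the 4 embryos, against 607672 to 3379426 over the 16 samples. Levels are given as reads per 1000000 reads of the embryo (CPM), which are not divided by gene length and are compared between embryos for a given gene, not between genes. A locus was called detected from 3 reads on, and these correspond to 0.888 to 2.08 CPM in the 4 embryos. With every embryo thinned to 1440058 reads, 8551 and 8964 loci had at least 3 reads in 2C embryos 1 and 2, and 8998 and 8946 in 4C embryos 1 and 2. The mean was 8757 ± 292 (SD, n = 2) loci at 2C and 8972 ± 37 (SD, n = 2) loci at 4C, so the stages differed by less than the spread between the 2C embryos. In the same thinning the MII oocytes had 6997 and 6252 such loci.

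The 2C embryos were further apart from each other than the 4C embryos. Across 6426 loci kept by a filter on the 4 embryos, the Pearson correlation of log2 levels was 0.756 between the 2C embryos and 0.909 between the 4C embryos. The 2C embryo 2 correlated with the 4C embryos at 0.888 and 0.894, and 2C embryo 1 at 0.739 and 0.759. The 2C embryo 1 was closer to the MII oocytes, at 0.804 and 0.837, than 2C embryo 2, at 0.765 and 0.690. Levels were over 4-fold apart at 15% of these loci between the 2C embryos and at 2.8% between the 4C embryos. At the same loci the MII oocytes correlated at 0.858 and the 8-cell (8C) embryos at 0.784. Their levels were over 4-fold apart at 14% and 25% of the loci, so such a spread was not particular to 2C. These correlations are across loci of the same libraries and describe those libraries. The density plot of levels shows the wide cloud of 2C embryo 1 and the narrow cloud of 2C embryo 2 against the 4C mean.

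**Figure D1:**
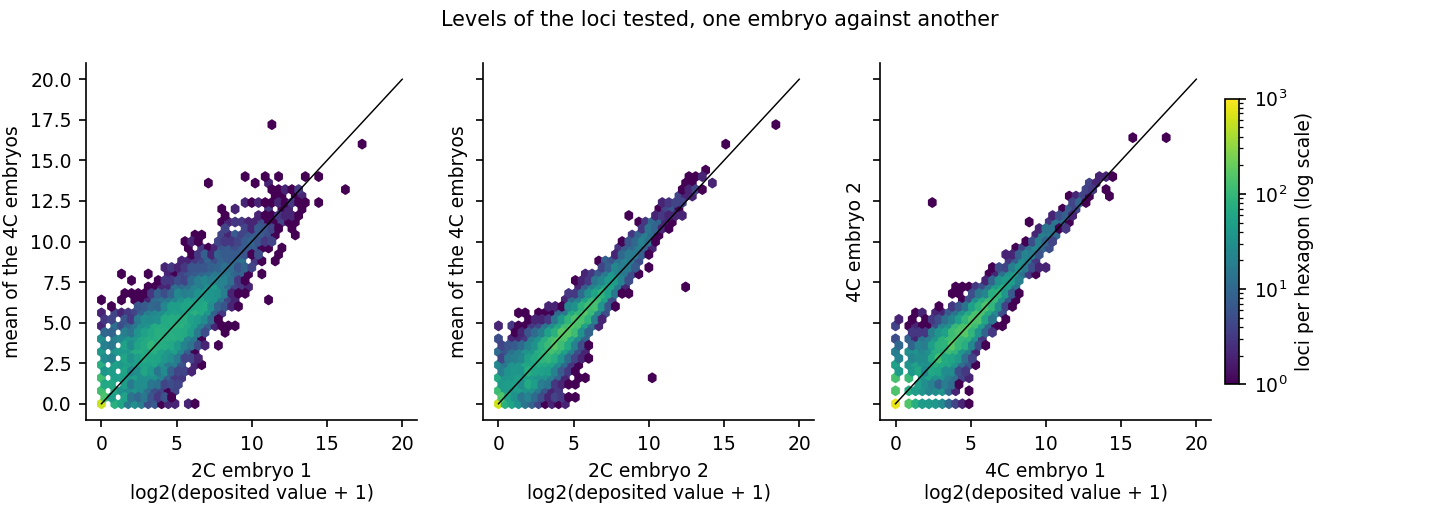
Density plot of the levels of 9670 loci, with log2(deposited value + 1) of 2C embryo 1 (left) and 2C embryo 2 (middle) on the x axis against the mean of the 4C embryos, and of 4C embryo 1 against 4C embryo 2 (right). Colour gives the loci per hexagon on a log scale and the line marks equal levels; the cloud is widest for 2C embryo 1.

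The same split was seen at loci that were chosen without the 2C embryos. Between MII and 4C, 1014 of 9670 loci (10.5%) differed when the 2C embryos were left out of the fit (limma with Benjamini-Hochberg adjustment, threshold 0.05). On the log2 scale from the MII mean, set at 0, to the 4C mean, set at 1, 2C embryo 1 had a median position of 0.494 over these loci and 2C embryo 2 of 0.912. The 2C embryo 2 was nearer to 4C than to MII at 92.0% of the loci and 2C embryo 1 at 49.3%. A 4C embryo held out of both the choice of loci and the upper end was placed at 0.925 (4C embryo 1, 138 loci) and 0.878 (4C embryo 2, 191 loci). The MII oocytes held out in the same way were placed at 0.403 (1068 loci) and 0.050 (324 loci), so the lower end of the scale was less certain than the upper end. At the loci and ends used for held-out 4C embryos 1 and 2, 2C embryo 2 was placed at 0.891 and 0.884, and 2C embryo 1 at 0.449 in both. At those used for held-out MII oocytes 1 and 2, 2C embryo 1 was placed at 0.551 and 0.560. On matched loci 2C embryo 2 thus lay near the held-out 4C embryos, and 2C embryo 1 lay above both MII oocytes and below the other 3 embryos.

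**Figure D2:**
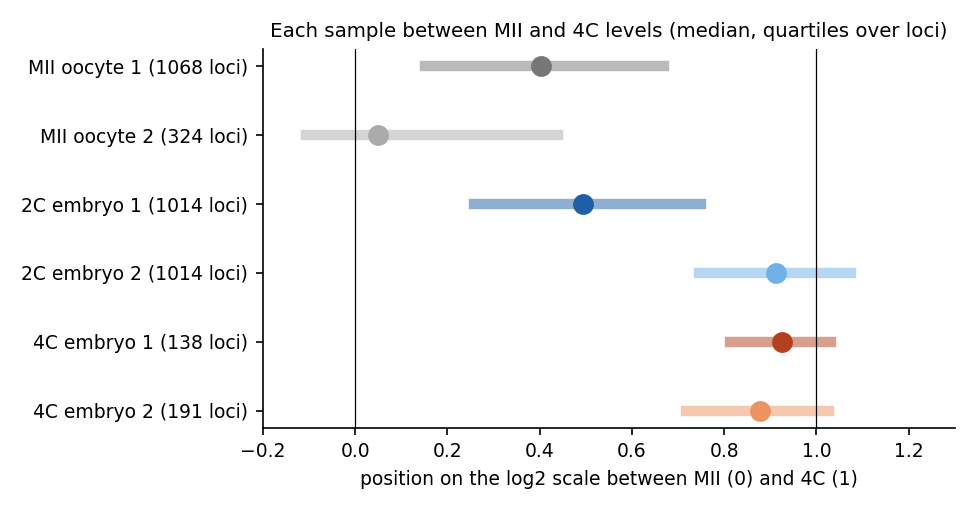
Position of each sample between the levels of MII (0) and 4C (1) on the log2 scale, with points at the median and bars from the lower to the upper quartile over the loci given beside each name. The median of 2C embryo 1 is 0.494, and those of 2C embryo 2 and the held-out 4C embryos are 0.912, 0.925 and 0.878.

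The kind of cell was checked against markers, which were not chosen to tell 2C from 4C. Of 12 genes of oocytes and cleavage embryos, 11 had reads, and their summed level was 7739 and 5654 CPM at 2C and 4285 and 4088 CPM at 4C. BMP15, an oocyte growth factor, had 0 reads in each of the 4 embryos. Markers of other cells were sparse with some exceptions. Of 12 blood cell markers 2 had reads, with 9 to 16 reads in sum per embryo, and of 14 sperm markers 3 had reads, with 2 to 24 reads in sum. PTPRC, CD68, HBB, PRM1 and PRM2 were at 0 reads. Of 18 cumulus and granulosa markers 12 had reads, and their sum of 1075 and 1736 CPM at 2C and 1823 and 2004 CPM at 4C was carried mostly by STAR, a cholesterol carrier of steroid-making cells, and HAS2, which makes hyaluronan, while AMH, FOXL2, NR5A1, INHA and CYP11A1 were at 0 reads. Of 12 oviduct and epithelial markers 7 had reads, with 131 CPM in sum in 2C embryo 1 and 21.3 to 38.1 CPM in the other 3 embryos. OVGP1, a glycoprotein secreted by the oviduct, had 113 reads in 2C embryo 1 and 0 reads in 2C embryo 2 and both 4C embryos, with 1 read in each MII oocyte. It made up 75.2 CPM of the sum in 2C embryo 1. The sum of the list was 62.9 and 85.5 CPM in MII oocytes and 638.5 and 221 CPM at 8C. The part of these markers in the difference between the 2C embryos was not tested.

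No locus passed the test between 2C and 4C embryos. The test was limma's, on log2 of the deposited value with 1 added, with a mean for each of the 8 stages and adjustment over the 9670 loci kept by a filter on low values. Of these loci 0 (0.0%) were higher at 4C and 0 (0.0%) were lower at an adjusted p under 0.05, and the lowest adjusted p was 0.144. At an unadjusted p under 0.05, 240 loci (2.48%) were higher and 201 (2.08%) lower at 4C. The edgeR quasi-likelihood test on the recovered reads called 0 loci, with 456 at an unadjusted p under 0.05, and DESeq2 called 1 locus, with 434. The median log2 change was 0.00 and the median of its size was 0.54. On the deposited scale both 4C embryos lay above both 2C embryos at 1617 loci (16.7%) and below both at 1645 loci (17.0%). Reads were also simulated at these depths over 9568 loci, with a spread estimated from all 8 stages and differences set only at loci of higher CPM. The limma test recovered 2% of 2-fold, 6% of 4-fold, 28% of 8-fold and 66% of 16-fold differences, 50 loci each, with 4 false calls. In the simulation differences of 8-fold and less were thus mostly missed with 2 embryos per stage. Differences at loci of low CPM, and the spread of the 2C and 4C embryos alone, were not simulated.

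The outcome depended on which 2C embryo was kept. Without 2C embryo 1, 0 loci were called and 200 had an unadjusted p under 0.05. Without 2C embryo 2, 7 loci were called higher and 3 lower at 4C, and 1135 had an unadjusted p under 0.05. A lone 2C embryo is assumed in these fits to vary like the other stages. The 4 named genes among those called higher were CBLL1, ITGA2, SMS and DNAJC6, and the named gene among those called lower was F3, tissue factor, which starts blood clotting. DNAJC6, a co-chaperone that removes clathrin coats, had 2 and 374 reads at 2C and 212 and 307 reads at 4C. SMS, which makes spermine, had 0 and 77 reads at 2C and 55 and 50 reads at 4C. F3 had 78 and 2 reads at 2C and 0 reads in both 4C embryos. These genes were called because 2C embryo 2 was left out, so that its values lie nearer to the 4C embryos follows from that choice and is no finding. Without 4C embryo 2, SUN5 was called lower, and it had 798 and 13589 reads at 2C and 4 and 6760 reads at 4C.

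The 10 loci with the highest mean CPM over the 4 embryos were unequal between the 2C embryos, with NLRP8 as the exception. The locus with the highest mean CPM, XLOC_046224, has no gene name and took 0.217% and 27.0% of the reads at 2C and 20.4% and 7.44% at 4C. Loci with no gene name together took 6.66% and 35.5% of the reads at 2C and 30.4% and 18.4% at 4C. ACCSL had 134490 and 26942 CPM at 2C and 45038 and 63066 CPM at 4C. ODC1, ornithine decarboxylase, the first enzyme of polyamine synthesis, had 73242 and 9183 CPM at 2C and 5467 and 7772 CPM at 4C. The 4C embryos lay below both 2C embryos at ODC1, but by far less below 2C embryo 2 than 2C embryo 1. TUBA1A, an alpha tubulin, had 18082 and 6726 CPM at 2C and 10217 and 11293 CPM at 4C, so the stages overlapped. Tubulin genes are near-identical copies and may share reads. The unnamed loci XLOC_000185 and XLOC_054155 had 104 and 14657 CPM and 699 and 5127 CPM at 2C, and 13859 and 6119 CPM and 13766 and 13711 CPM at 4C. PAPOLG, a poly(A) polymerase, had 1028 and 13902 CPM at 2C and 12195 and 6372 CPM at 4C. At each of these 7 loci the ratio between the 2C embryos was larger than that between the 4C embryos.

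Genes of the maternal store were followed by lists, and a list is described by how many of its tested members had stages that did not overlap on the deposited scale, read against the 16.7% above and 17.0% below over the loci tested. In CPM, the scale of the gene levels given here, the 4C embryos lay above at 13.9% and below at 20.1% of the loci tested, and the count in CPM is added where it turns the balance of a list. The median of a list is followed by its values without 2C embryos 1 and 2 where these differ in sign or by over 1.5 times. List medians also moved with a 4C embryo left out or with samples scaled to total reads, and these values are given for some lists. None of the members of any list was called. Of 8 oocyte-secreted and zona pellucida genes tested, 1 lay above and 2 below, and the median log2 change was -0.26, with -0.17 and -0.35 without 2C embryos 1 and 2. Without 4C embryos 1 and 2 the median was -0.55 and -0.01. ZP2, a sperm receptor of the zona pellucida, had 405 and 337 CPM at 2C and 300 and 243 CPM at 4C. KIT, a receptor of the growing oocyte, had 26.6 and 65.1 CPM at 2C and 144 and 83.6 CPM at 4C. OOSP1, a protein secreted by the oocyte, had 506 and 250 CPM at 2C and 244 and 134 CPM at 4C. For OOSP1 and ZP4 the 4C embryos lay below both 2C embryos in CPM but overlapped with them on the deposited scale.

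Of 14 maternal-effect genes tested, 2 lay above and 4 below, with a median of -0.05 that was 0.06 without 2C embryo 1 and -0.52 without 2C embryo 2. This median was -0.26 without 4C embryo 1, -0.14 without 4C embryo 2 and -0.18 with total reads. H1FOO, the linker histone of the oocyte, had 5511 and 3439 CPM at 2C and 2544 and 2419 CPM at 4C. It stood at 7085 and 9715 CPM in MII oocytes and at 21.0 and 1347 CPM at 8C. The 4C embryos lay below both 2C embryos, and the 2C embryos below both MII oocytes. DPPA3, which protects the maternal genome from demethylation, had 563 and 396 CPM at 2C and 284 and 241 CPM at 4C. NLRP8, a protein of the oocyte NLRP family, had 9229 and 9150 CPM at 2C and 13209 and 14134 CPM at 4C, and there the 4C embryos lay above both 2C embryos. NLRP9 overlapped, with 200 and 98.8 CPM at 2C and 108 and 132 CPM at 4C.

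Of 25 genes that bind maternal mRNAs or extend their poly(A) tails, 5 lay above and 3 below on the deposited scale, but 2 above and 5 below in CPM, and the median was 0.25. It was 0.09 without 2C embryo 1 and 0.75 without 2C embryo 2. EIF4E1B, the cap-binding protein of oocytes, had 2127 and 4657 CPM at 2C and 6657 and 7551 CPM at 4C. EIF4ENIF1, a partner of the cap-binding protein that represses translation, had 1145 and 1017 CPM at 2C and 1106 and 1141 CPM at 4C, which overlap in CPM, while on the deposited scale the 4C embryos lay above. FMR1, an mRNA-binding repressor of translation, had 28 and 13.0 CPM at 2C and 6.25 and 6.76 CPM at 4C (log2 change -1.33 ± 0.60 SE).

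Of 25 mRNA decay genes 3 lay above and 7 below, with a median of 0.02 that was -0.28 without 2C embryo 1 and -0.13 without 2C embryo 2. It was -0.17 without 4C embryo 1, 0.08 without 4C embryo 2 and -0.10 with total reads. PAN2, a catalytic subunit of the PAN2-PAN3 deadenylase that trims poly(A) tails, had 37.3 and 15.1 CPM at 2C and 0.694 and 3.07 CPM at 4C (log2 change -3.26 ± 0.70 SE, limma adjusted p = 0.71). CNOT7, a deadenylase of the CCR4-NOT complex, had 510 and 302 CPM at 2C and 152 and 158 CPM at 4C. CNOT6L, another deadenylase of this complex, had 588 and 381 CPM at 2C and 258 and 265 CPM at 4C. BTG1, which recruits CCR4-NOT, had 36.6 and 16.9 CPM at 2C and 2.78 and 10.4 CPM at 4C. In these 4 genes the 4C embryos lay below both 2C embryos. BTG4, the adaptor that starts maternal mRNA decay in oocytes, overlapped with 672 and 958 CPM at 2C and 581 and 744 CPM at 4C. ZFP36L2 and TOB1, which also bring deadenylases to mRNAs, lay above, with 0 and 1.18 CPM at 2C and 7.64 and 6.14 CPM at 4C for TOB1.

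Of 41 genes of oocyte arrest and mitotic entry 8 lay above and 8 below, or 5 and 8 in CPM, with a median of 0.07 that was -0.09 and 0.11 without 2C embryos 1 and 2. CKS1B, a subunit of cyclin-dependent kinases, had 3138 and 11730 CPM at 2C and 15180 and 13187 CPM at 4C. WEE2, the kinase that holds oocytes in meiotic arrest, had 19283 and 4821 CPM at 2C and 4280 and 5287 CPM at 4C, against 31801 and 44153 CPM in MII oocytes. CDK2, a kinase of S phase entry, had 1.33 and 17.8 CPM at 2C and 40.3 and 32.0 CPM at 4C, whereas its partner CCNE1 had 53.2 and 10.1 CPM at 2C and 5.56 and 4.30 CPM at 4C. CCNA2 and AURKA overlapped between the stages. Of 30 tubulins and microtubule motors 7 lay above and 7 below, or 6 and 9 in CPM, with a median of -0.02 that was -0.16 and 0.10 without 2C embryos 1 and 2. KIF23, a motor of the cleavage furrow, had 1862 and 1337 CPM at 2C and 3026 and 4550 CPM at 4C, and KIF20A, another motor of cytokinesis, had 48.6 and 26.0 CPM at 2C and 9.72 and 14.1 CPM at 4C.

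The transcription machinery was read next. Of 48 genes of RNA polymerase II and its general factors 4 lay above and 11 below, with a median of -0.0047 that was -0.20 and 0.0081 without 2C embryos 1 and 2. POLR2B, the second largest subunit, had 20.6 and 8.29 CPM at 2C and 7.64 and 1.23 CPM at 4C, and TAF7, a subunit of TFIID, had 16.6 and 12.7 CPM at 2C and 1.39 and 5.53 CPM at 4C. TBPL1, a relative of the TATA-binding protein, had 246 and 171 CPM at 2C and 128 and 97.7 CPM at 4C. Of 25 Mediator genes 7 lay above and 5 below, with a median of 0.01 that was -0.09 and 0.20 without 2C embryos 1 and 2. MED27 had 3.33 and 10.1 CPM at 2C and 21.5 and 27.0 CPM at 4C. CCNC, the cyclin of the Mediator kinase module, had 25 and 42 reads at 2C and 0 and 1 reads at 4C, and 51 and 170 reads at 8C. Its log2 change from 2C to 4C was -3.77 ± 0.65 SE (limma adjusted p = 0.144), and it was called in the fit with no filter on low values (adjusted p = 0.0445) and not in the other fits.

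Of 29 early activation and pluripotency factors tested, some through later stages only, 5 lay above and 0 below, or 5 and 1 in CPM, and the median was 0.02, with 0.00 and 0.43 without 2C embryos 1 and 2. SALL4, a zinc finger factor of pluripotent cells, had 716 and 2269 CPM at 2C and 3174 and 4324 CPM at 4C (log2 change 1.67 ± 0.67 SE, limma adjusted p = 1). SOX15 had 0.666 and 1.48 CPM at 2C and 6.94 and 9.22 CPM at 4C. EIF1AX had 146 and 139 CPM at 2C, and 110 and 449 CPM at 4C, so 1 of the 4C embryos lay above both 2C embryos and the other below. POU5F1, the pluripotency factor OCT4, overlapped with 247 and 250 CPM at 2C and 214 and 295 CPM at 4C. NANOG, ARGFX and ZSCAN4 had 0 reads in each of the 4 embryos, and KLF17 had 0 to 1.84 CPM, against 679 and 3582 CPM at 8C. Of 120 ZNF zinc finger genes tested 23 lay above and 14 below on the deposited scale, but 17 above and 19 below in CPM. ZNF415 had 39.9 and 823 CPM at 2C and 959 and 864 CPM at 4C, and ZNF143 had 71.9 and 289 CPM at 2C and 315 and 479 CPM at 4C. In SALL4, ZNF415 and ZNF143, 2C embryo 2 was nearer to the 4C embryos than to 2C embryo 1. The median of the ZNF genes was 0.07, and it was -0.21 without 2C embryo 1 and 0.44 without 2C embryo 2.

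To read the step against the wider course of the mRNAs, loci were sorted by a fit that left out the 4 embryos. In it 1830 loci (18.9%) were lower at 8C than in MII oocytes and 2283 (23.6%) were higher. At the loci lower at 8C, the 4C embryos lay below both 2C embryos at 568 (31.0%) and above both at 190 (10.4%), and the median log2 change from 2C to 4C was -0.29. It was -0.14 without 2C embryo 1 and -0.52 without 2C embryo 2, and -0.41 with samples scaled to total reads. On the scale from MII (0) to 8C (1) the median position was 0.109 and 0.215 in the 2C embryos and 0.258 and 0.241 in the 4C embryos. At the loci higher at 8C, the 4C embryos lay above both 2C embryos at 483 (21.2%) and below both at 252 (11.0%), and the median change was 0.12, or 0.02 with total reads. It was 0 without 2C embryo 1 and 0.21 without 2C embryo 2. The positions there were 0.214 and 0.282 at 2C and 0.316 and 0.297 at 4C. In both sets each 4C embryo was further along than both 2C embryos, and 2C embryo 2 was further along than 2C embryo 1.

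The cytosolic ribosomal proteins had the list median farthest from 0 with both 2C embryos in the fit, but not without 2C embryo 1, where the proteasome list was at -0.39 and the ribosomal proteins at -0.36. Of 83 genes found 78 were tested; 33 (42.3%) lay below and 2 above, against 17.0% and 16.7% of the loci tested, and 17 had an unadjusted p under 0.05 with a lower level at 4C. The change was below 0 in 67 of the 78 genes and its median was -0.90 on the log2 scale. The median level over the genes, as log2(deposited value + 1), was 4.90 and 3.66 at 2C and 3.14 and 3.06 at 4C, with 3.07 and 3.4 in MII oocytes and 7.09 and 7.83 at 8C. Among the MII, 2C and 4C samples 2C embryo 1 had the highest median, and 2C embryo 2 lay between it and the 4C embryos. Of the 4 embryos 2C embryo 1 also had the highest sum of oviduct and epithelial markers. This sum was 131 CPM against 21.3 to 38.1 CPM in the other 3 embryos, and OVGP1 made up 75.2 CPM of it, with 113 reads against 0. The MII oocytes had 62.9 and 85.5 CPM and the 8C embryos 638.5 and 221 CPM. The part of these markers in the ribosomal levels was not tested. The median change was -0.36 without 2C embryo 1, with 44.9% of the genes below the remaining 2C embryo against 33.9% of the loci tested. It was -1.44 without 2C embryo 2, with 88.5% against 36.3%.

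**Figure D3:**
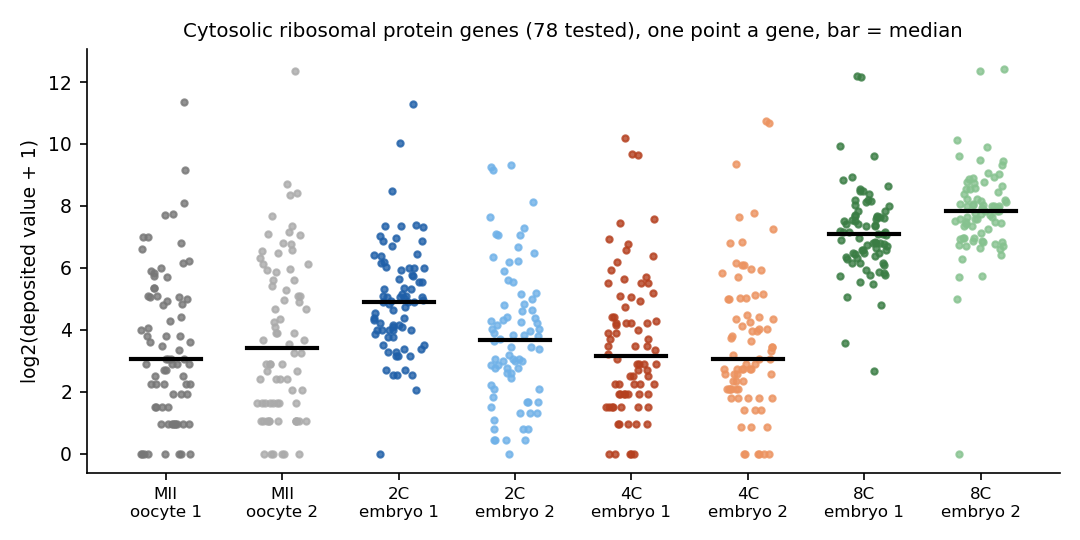
Levels of 78 cytosolic ribosomal protein genes in each MII oocyte and each 2C, 4C and 8C embryo as log2(deposited value + 1), with a point for each gene and a bar at the median. The medians are 4.90 in 2C embryo 1, 3.66 in 2C embryo 2, 3.14 and 3.06 in the 4C embryos, and above 7 at 8C.

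The ribosomal protein genes had few reads, with a median over the 78 genes of 36.5 and 32.0 reads at 2C and 8.5 and 9.0 reads at 4C. RPL9, of the large subunit, had 14.6 and 14.2 CPM at 2C and 2.78 and 4.92 CPM at 4C (log2 change -1.64 ± 0.51 SE). RPS23, of the small subunit, had 16.6 and 12.4 CPM at 2C and 2.78 and 3.69 CPM at 4C, and RPL38 had 21.3 and 4.14 CPM at 2C and 0 and 1.84 CPM at 4C. In these 3 genes the 4C embryos lay below 2C embryo 2 as well as 2C embryo 1. The genes were picked for a low p after their values were seen. That choice favours stages that do not overlap, so this is no finding. The members with most reads went differently. RPS21 had 883 and 464 CPM at 2C and 884 and 1302 CPM at 4C, RPL7L1, a relative that is not a ribosomal subunit, had 297 and 518 CPM at 2C and 615 and 495 CPM at 4C, with overlap in CPM and none on the deposited scale, and RPS20 had 2123 and 500 CPM at 2C and 597 and 1228 CPM at 4C. The summed level of the list was 5942 and 3271 CPM at 2C and 3350 and 4385 CPM at 4C, with overlap. The 3 highest genes are RPS20, RPS21 and RPL7L1. Without them the sum was 2640 and 1789 CPM at 2C and 1255 and 1361 CPM at 4C, with no overlap. RPS21 and RPL7L1 are the only members that lay above, so this lack of overlap follows in part from leaving them out. Ribosomal protein genes have many processed copies in mammalian genomes, and how reads shared with such copies were counted is not known, so single members are uncertain.

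Other genes of translation did not share this median. Of 48 translation factors 6 lay above and 5 below on the deposited scale, but 5 above and 8 below in CPM, and the median was 0.30, with -0.08 and 0.37 without 2C embryos 1 and 2. It was 0.10 without 4C embryo 1, 0.30 without 4C embryo 2 and 0.18 with total reads. EIF3A, a scaffold of the initiation factor eIF3, had 7381 and 7617 CPM at 2C and 6574 and 8362 CPM at 4C. EIF3L, another eIF3 subunit, had 194 and 136 CPM at 2C and 79.9 and 49.2 CPM at 4C. TPT1, a growth-related protein whose mRNA is regulated like those of ribosomal proteins, had 63.2 and 27.8 CPM at 2C and 8.33 and 14.1 CPM at 4C. Of 51 splicing factors 8 lay above and 14 below, with a median of -0.29 that was -0.12 with either 2C embryo left out. Without 4C embryos 1 and 2 this median was -0.04 and -0.24. SRSF9 had 966 and 1089 CPM at 2C and 1040 and 1262 CPM in 4C embryos, which overlap in CPM but not on the deposited scale, and SRSF2 had 124 and 171 CPM at 2C and 228 and 181 CPM at 4C.

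**Figure D4:**
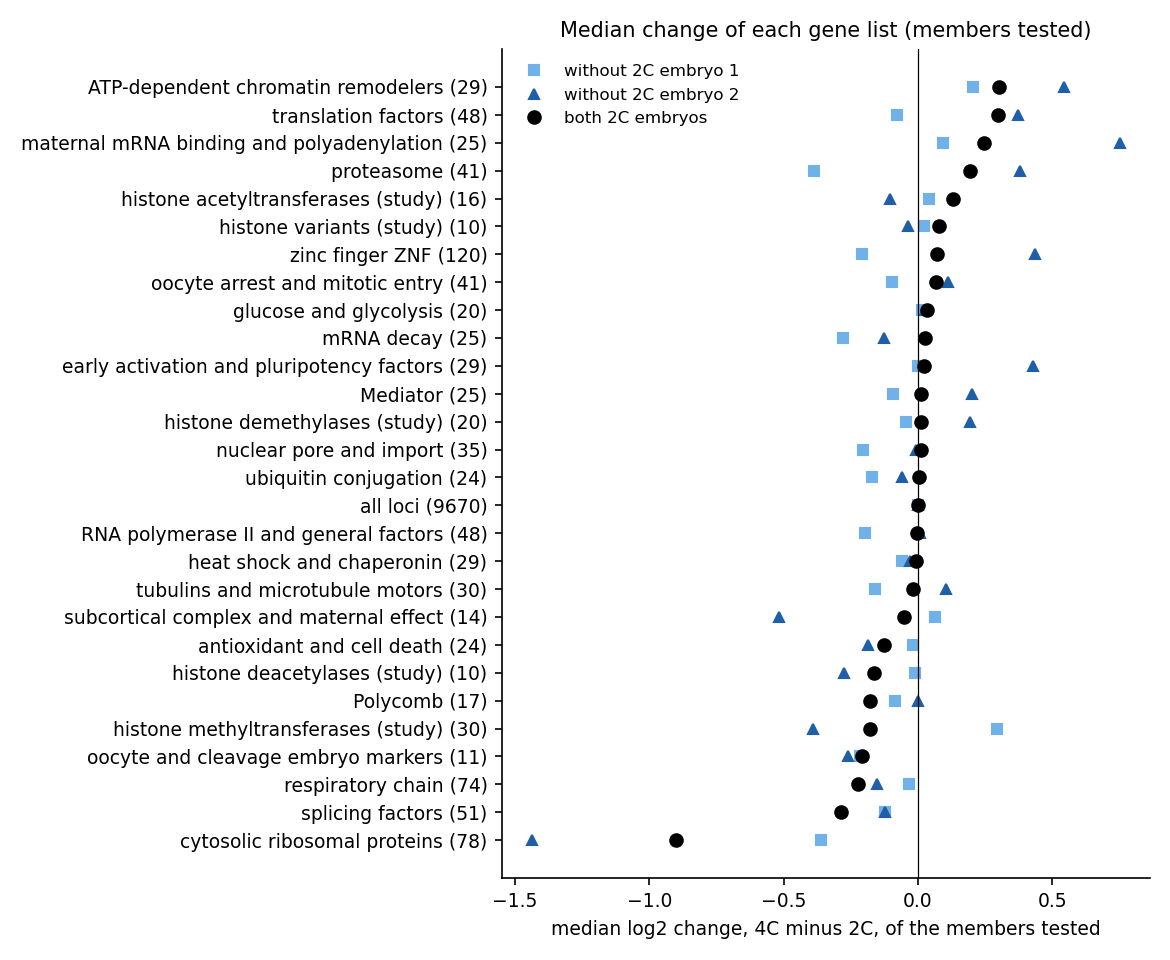
Median log2 change from 2C to 4C over the tested members of each gene list with at least 10 of them, with both 2C embryos (circles), without 2C embryo 1 (squares) and without 2C embryo 2 (triangles), and the number of members tested in brackets. The circles lie between -0.29 and 0.30 except for the ribosomal proteins at -0.90.

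Lists of protein turnover and energy supply were mixed. Of 41 proteasome genes 4 lay above and 12 below, with a median of 0.20 that was -0.39 without 2C embryo 1 and 0.38 without 2C embryo 2. It was 0.22 without 4C embryo 1, -0.05 without 4C embryo 2 and 0.07 with total reads. PSMA5, a core subunit, had 146 and 87.0 CPM at 2C and 59.0 and 68.8 CPM at 4C, and PSMD9, an assembly factor, overlapped with 1632 and 1170 CPM at 2C and 1690 and 1437 CPM at 4C. Of 24 ubiquitin conjugation genes 4 lay above and 5 below, with a median of 0.0057 that was -0.17 and -0.06 without 2C embryos 1 and 2. UBE2C, the conjugating enzyme that acts in mitotic exit, had 7.32 and 7.10 CPM at 2C and 17.4 and 19.1 CPM at 4C (log2 change 1.37 ± 0.54 SE). Of 74 respiratory chain genes 13 lay above and 16 below, with a median of -0.22 that was -0.03 and -0.15 without 2C embryos 1 and 2. This median was -0.09 without 4C embryo 1, -0.11 without 4C embryo 2 and -0.33 with total reads. NDUFAF1, an assembly factor of complex I, had 435 and 2558 CPM at 2C and 3264 and 3270 CPM at 4C, and NDUFA2, a complex I subunit, had 5.99 and 7.69 CPM at 2C and 16.7 and 27.0 CPM at 4C. ATP5F1, a subunit of the ATP synthase, had 112 and 72.8 CPM at 2C and 31.2 and 24 CPM at 4C. Of 20 genes of glucose use 5 lay above and 2 below. PDHA1, of the pyruvate dehydrogenase complex, had 166 and 256 CPM at 2C and 331 and 518 CPM at 4C.

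Of 35 nuclear pore and import genes 3 lay above and 9 below, with a median of 0.01 that was -0.20 and -0.0076 without 2C embryos 1 and 2. NUP153, of the nuclear basket, had 232 and 861 CPM at 2C and 1590 and 1482 CPM at 4C (log2 change 1.91 ± 0.64 SE), and AAAS had 3.33 and 3.25 CPM at 2C and 20.8 and 17.2 CPM at 4C. NUP88 had 362 and 179 CPM at 2C and 122 and 87.3 CPM at 4C. The 2C embryos were nearly equal at AAAS, UBE2C and NDUFA2, and apart at NUP153 and NDUFAF1. Of 29 heat shock and chaperonin genes 2 lay above and 4 below, and of 24 antioxidant and cell death genes 1 lay above and 4 below. TCP1, of the chaperonin, had 4089 and 2568 CPM at 2C and 2344 and 2557 CPM at 4C, lower in CPM and overlapping on the deposited scale. BCL2L10, a survival factor of oocytes, had 93.8 and 127 CPM at 2C and 47.9 and 28.3 CPM at 4C.

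Chromatin genes were described last. Of 29 ATP-dependent remodelers 7 (24.1%) lay above and 2 (6.90%) below, and the median was 0.30, with 0.21 and 0.54 without 2C embryos 1 and 2. It was 0.51 without 4C embryo 1, 0.19 without 4C embryo 2 and 0.17 with total reads. ARID1B, a subunit of the BAF complex, had 2.00 and 15.4 CPM at 2C and 41.7 and 28.9 CPM at 4C, and ARID1A, its alternative subunit, had 47.3 and 72.8 CPM at 2C and 105 and 73.7 CPM at 4C. SMARCA5, the ISWI remodeler, overlapped. Of 17 Polycomb genes 2 lay above and 2 below (2 and 3 in CPM), among 30 histone methyltransferases 5 above and 6 below, among 20 demethylases 4 above and 2 below, among 16 acetyltransferases 1 above and 0 below, and among 10 deacetylases 2 above and 2 below (1 and 2 in CPM). Histone variants had 0 above and 2 below of 10, and DNA modifiers 1 above and 1 below of 5. PRDM2, a methyltransferase of histone H3, had 415 and 801 CPM at 2C and 1464 and 1843 CPM at 4C (log2 change 1.64 ± 0.55 SE). DNMT1, the maintenance DNA methyltransferase, had 65.9 and 42.9 CPM at 2C and 27.1 and 29.5 CPM at 4C, and DNMT3A, a de novo enzyme, had 2.66 and 20.1 CPM at 2C and 27.1 and 22.7 CPM at 4C. HDAC1 overlapped, with 118 and 36.7 CPM at 2C and 38.2 and 25.2 CPM at 4C.

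The single genes with the lowest p were picked after their values were seen and are a description. Among loci with an unadjusted p under 0.05, stages that did not overlap and at least 10 reads in each embryo of the higher stage, 177 were higher and 151 lower at 4C. SH3BP4, which acts in receptor endocytosis, had 2.00 and 0 CPM at 2C and 21.5 CPM in each 4C embryo (log2 change 4.01 ± 0.78 SE, limma adjusted p = 0.377). CHPT1, which makes phosphatidylcholine, had 61.2 and 95.6 CPM at 2C and 251 and 435 CPM at 4C, against 24.7 and 10.6 CPM at 8C. NME7, a protein of the centrosomal microtubule-nucleating complex, had 297 and 1000 CPM at 2C and 1515 and 1966 CPM at 4C. The unnamed locus XLOC_010613 had 1 and 5 reads at 2C and 24 and 46 reads at 4C, and was the locus that DESeq2 called (adjusted p = 0.0107).

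Among the genes lower at 4C, GPN1, a GTPase that helps RNA polymerase II into the nucleus, had 55.2 and 27.2 CPM at 2C and 1.39 and 3.69 CPM at 4C (log2 change -3.55 ± 0.79 SE, limma adjusted p = 0.744). GALNT11, a glycosyltransferase, had 234 and 107 CPM at 2C and 34.0 and 33.8 CPM at 4C. ELP2, of the Elongator complex that modifies tRNAs, had 46.6 and 11.8 CPM at 2C and 3.47 and 1.23 CPM at 4C. PRPF4B, a kinase of the spliceosome, had 22.6 and 17.8 CPM at 2C and 2.78 and 3.69 CPM at 4C. CDV3 had 45.3 and 44.1 CPM at 2C and 8.33 and 8.60 CPM at 4C. At CDV3, PRPF4B and CCNC the 2C embryos were close to each other, while at ELP2 and GALNT11 the 2C embryos were over 2-fold apart.

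**Figure D5:**
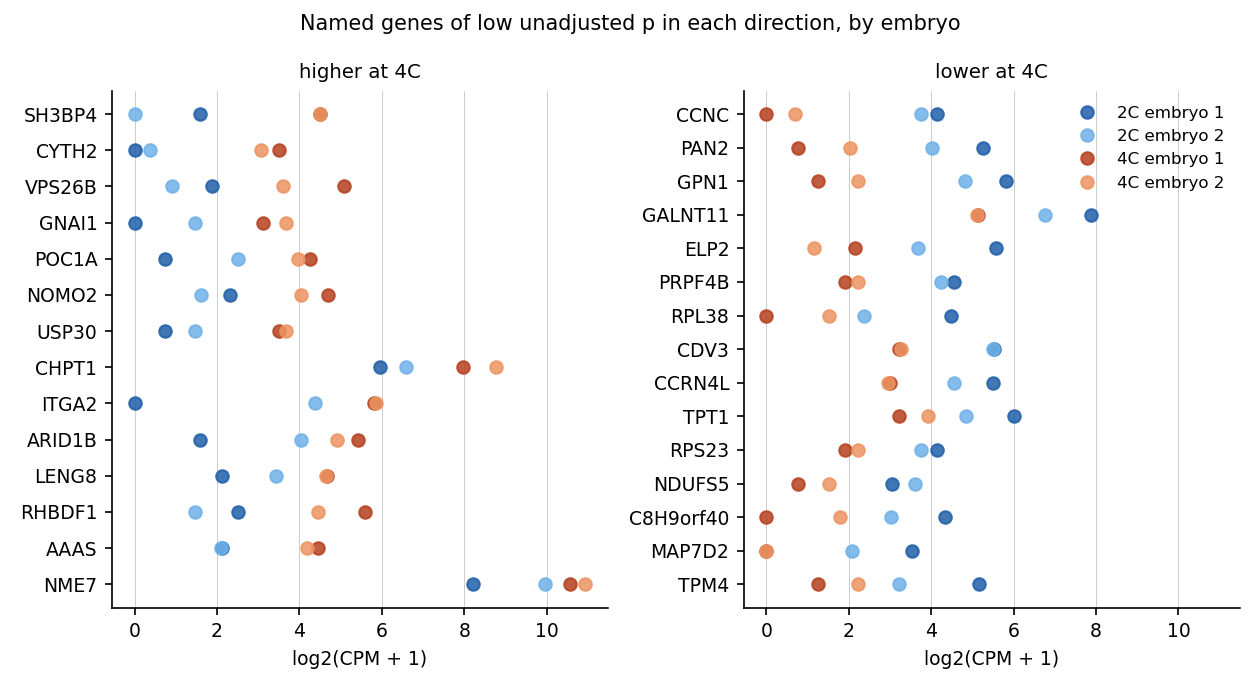
Levels as log2(CPM + 1) in each 2C embryo (blue) and each 4C embryo (red) for genes among the 15 named ones with the lowest unadjusted p among those higher (left) and lower (right) at 4C without overlap and with at least 10 reads in each embryo of the higher stage. In ITGA2 and ARID1B 2C embryo 2 lies nearer to the 4C embryos than to 2C embryo 1, and in SH3BP4 and CDV3 both 2C embryos lie far from them.

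Few loci were met at 1 stage alone. With at least 3 reads in both embryos of a stage and 0 reads in both of the other, 44 loci were found at 4C and 57 at 2C, beside 6849 loci with at least 3 reads in each of the 4 embryos. Of the 44 loci, 23 also had 0 reads in both MII oocytes. Among the named genes of these 23, PLCD4, a phospholipase C, had 6 and 19 reads at 4C, GOLT1A had 5 and 13 reads, and TCEA2, a transcript elongation factor, had 3 and 10 reads. GOLT1A had 13 and 55 reads at 8C, and TCEA2 had 0. Of the 57 loci 23 had 0 reads at 8C too. MAP7D2, which binds microtubules, had 16 and 11 reads at 2C and 0 at 4C, and 18 and 9 reads at 8C. These loci were named for their read numbers after those were seen, and the deepest library is 2C embryo 2. A further 300 loci had at least 3 reads in 2C embryo 2 and both 4C embryos and 0 reads in 2C embryo 1, whose depth is close to that of the 4C embryos.

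The steps on either side gave more calls in the same model. From MII to 2C, 116 loci were higher and 21 lower (1.42%), and from 4C to 8C 1711 were higher and 1849 lower (36.8%). From MII to 4C, which spans both early divisions, 627 were higher and 212 lower (8.68%). The step from MII to 2C shares the 2C embryos with the step from 2C to 4C, and the other comparisons share the 4C embryos with it. The median size of the log2 change was 0.80 from MII to 2C, 0.54 from 2C to 4C and 1.69 from 4C to 8C. The differences between steps were tested as contrasts. The change from 2C to 4C differed from that from MII to 2C at 0 loci (0.0%, limma), with 541 at an unadjusted p under 0.05, and 0 by edgeR. The change from 4C to 8C differed from that from 2C to 4C at 670 loci (6.93%), at 429 of them upward and at 241 downward, which became 74 without 4C embryo 1, 87 without 4C embryo 2 and 370 without 2C embryo 1, and 268 by edgeR.

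Among the named genes with the lowest p in this last contrast were ribosomal proteins. RPL38 had a log2 change of -2.77 ± 0.73 SE from 2C to 4C and 7.31 ± 0.73 SE from 4C to 8C (limma adjusted p of the difference 0.00149). RPL9 had 2.78 and 4.92 CPM at 4C and 116 and 146 CPM at 8C. PFKFB4, which sets the rate of glycolysis, had 73.9 and 45 CPM at 2C, 28.5 and 26.4 CPM at 4C and 1328 and 2342 CPM at 8C. In the other direction, CHL1, a cell adhesion molecule, had 676 and 650 CPM at 2C, 1307 and 1791 CPM at 4C and 2.47 and 2.89 CPM at 8C, and DCLRE1C, a DNA repair nuclease, had 114 and 120 CPM at 2C, 226 and 262 CPM at 4C and 0 and 0.962 CPM at 8C. ANKS1B and MNS1, at 69.4 and 89.1 CPM and 71.5 and 76.2 CPM at 4C, had 0 reads at 8C.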

How the data were processed

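The labels give the stage and replicate of each single oocyte or embryo, isolated with TRIzol and amplified by the TargetAmp 2-round kit before SOLiD libraries were made. Per the labels the authors used cutadapt, FastQC, TopHat, Cufflinks and HTSeq, whose versions, genome build and rule for shared reads are not given in the sources used here. The authors deposited a signal per locus, namely read counts divided by a size factor per sample. Dividing by the worth of 1 read turned 100% of the values above 0 into whole reads (tolerance 0.01), and this worth was the inverse of the sample's median-of-ratios size factor.

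Loci were kept by filterByExpr over 8 stages (9670 loci). The test was limma 3.58.1 (R 4.3.3, eBayes with trend, two-sided) on log2(deposited value + 1), so changes of low loci are understated, with 16 samples in the model and Benjamini-Hochberg adjustment. Alternatives were edgeR 4.0.16, DESeq2 1.42.0, other scalings, pseudocounts of 0.5 and 5, other filters, the 4 samples alone, a replicate block and each embryo left out. The floor of 3 reads reflects counting error alone, as the reads carry no molecular identifiers, and p-values measure the spread between single embryos.

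The gene lists (33, 5 of them of markers) and the comparison were chosen with earlier results of these data known. Named genes were to be called loci, of which there were none, the 10 loci of highest mean CPM and up to 4 members of each list with the highest mean CPM. Most of these are given, and list members with an unadjusted p under 0.05, genes at 0 reads and the genes of lowest p were added after their values were seen. Names were matched by symbol, or by synonym from a RefSeq gene table (ARS-UCD2.0), and where a name has several loci the one with most reads was used. Some genes that these rules name are not reported here.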

Additional observations from a re-analysis of the deposited data

Results flagged for a closer look

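The step from 4C to 8C differed from the step from 2C to 4C by a direct contrast in the same model: the later change was above the earlier one at 429 loci and below it at 241 loci (limma, Benjamini-Hochberg adjustment over 9670 loci). By edgeR's quasi-likelihood test the contrast was called at 268 loci in all. Both steps share the 4C embryos, and the counts were 74 and 87 with 4C embryos 1 and 2 left out.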

How the results depend on the processing

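The counts of loci called from 2C to 4C were 0 in each direction with total-read and TMM scaling, pseudocounts of 0.5 and 5, the filter on the 4 samples, the 4 samples alone and edgeR. They became 10 higher and 4 lower with no filter on low values, 12 of which that filter had kept out of the test, and 1 higher with DESeq2. With single embryos left out they ranged from 0 to 7 higher and 0 to 3 lower, the highest without 2C embryo 2. With the replicate block the calls were 0 in each direction, and the contrast with the next step was called at 595 loci; replicate numbers share only a number here, as the correlation of their deviations was -0.035 between 2C and 4C. The contrast with the previous step ranged from 0 to 2 loci and that with the next step from 74 to 838 with single embryos left out, and edgeR gave 268 for the latter; the cause was not tested. The counts of loci with stages that did not overlap became 2807 above and 3278 below without 2C embryo 1, and 3677 above and 3514 below without 2C embryo 2, since a single embryo is easier to separate from; with CPM in place of the deposited scaling they were 1340 and 1943. The median change of the loci lower at 8C ranged from -0.523 to -0.142, and that of the loci higher at 8C from 0 to 0.208. The median of the loci tested stayed between -0.024 and 0. Changes of 87 genes, chosen for an unadjusted p under 0.05, were recomputed 1198 times, and 2 values passed the threshold, CCNC with no filter and ITGA2 without 2C embryo 2; that none changed sign is no sign of stability, since the choice favours stages that do not overlap. Of 341 recomputed list medians 304 moved by less than 1 SD between embryos. That count includes the replicate block and the 4 samples alone, where a median cannot move. Of 31 lists 8 moved further without 2C embryo 1, 6 without 2C embryo 2 and 9 with edgeR. The alternatives on non-overlap, on loci sorted by 8C and MII and edgeR for the contrasts of steps were added after seeing the data. Each stage has 2 embryos, and the 2C embryos differ more from each other than the 4C embryos do.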
